A study of Homo sapiens with 30 samples.

Results

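The genes described here are 6 genes around p53 and its inhibitor MDM2: MDM2, MDM4, PPM1D, CCNG1, TP53INP1 and TP73. They were chosen by symbol, with earlier results of these data known, from 60656 listed genes, and all 6 were found. RNA was sequenced from human diffuse large B cell lymphoma lines, which are tumour B cells grown in culture. Cells of the 4 lines (HT, OCI-LY3, SUDHL5 and OCI-LY19) were sampled untreated at 0 h, and again once they had spent 24 h with doxorubicin at 0.2 µM. Doxorubicin is a chemotherapy drug that traps topoisomerase II on DNA and so breaks the strands. A second set compared OCI-LY19S, the drug-sensitive parental culture, with OCI-LY19R, its resistant derivative, which was kept in 20 nM doxorubicin until the drug was taken away shortly before sampling. Each of the 10 groups had 3 libraries, labelled as independent experiments, and every sample carries the genotype label WT. No untreated library at 24 h was analysed here, so drug and time in culture change together, and OCI-LY19R is a single derivative of a single line.

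p53 is a transcription factor that is held low in unstressed cells because MDM2, a ubiquitin ligase, marks it for destruction. DNA damage frees p53, which then switches on arrest, repair and death genes together with MDM2 itself, and so builds the negative feedback that limits its own activity. MDM4 is a relative of MDM2 that binds and blocks p53 without being a strong ligase. PPM1D encodes the phosphatase WIP1, which removes damage-signal phosphates from p53 and its activating kinases. CCNG1 encodes cyclin G1, a partner of protein phosphatase 2A that acts on MDM2. TP53INP1 is a stress protein that promotes p53 activity and autophagy, and TP73 encodes p73, a p53 relative that binds similar DNA sites.

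Among the 5 members searched, MDM2 and TP73 have annotated start sites whose upstream DNA holds the closest matches to the p53 consensus. These stretches are shown because p53 is known to act on MDM2 through a start site inside the gene. The consensus was searched by name as 2 adjacent decamers of 10 bases with no spacer, which reads the same on both strands. RefSeq start-site windows of GRCh38.p14 (250 bases before to 50 after each start) were read for 5 of the 6 genes. TP53INP1 was left out of this search, so nothing is said of its start sites. Capitals mark stretches that match at 17 or more of 20 bases. The 1st MDM2 stretch lies before the upstream start (chr12:68807922-68808171, plus strand), the 2nd lies before the internal start (chr12:68808767-68809001, plus strand), the MDM4 stretch is at chr1:204516156-204516378 (plus strand) and the TP73 stretch lies before an internal start (chr1:3690422-3690671, plus strand). None of the stretches contains an annotated exon of its gene. In GENCODE 29 on the same build the genes span chr12:68808176-68850686 (MDM2), chr1:204516379-204558120 (MDM4), chr17:60600183-60666280 (PPM1D), chr5:163437569-163446151 (CCNG1) and chr1:3652520-3736201 (TP73), all on the plus strand and protein-coding.
MDM2 upstream start: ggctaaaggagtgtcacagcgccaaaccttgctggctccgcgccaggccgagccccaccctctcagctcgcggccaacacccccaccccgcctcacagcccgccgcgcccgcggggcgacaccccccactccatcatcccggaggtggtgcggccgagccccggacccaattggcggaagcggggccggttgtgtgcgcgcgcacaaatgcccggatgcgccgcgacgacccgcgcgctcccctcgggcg
MDM2 internal start: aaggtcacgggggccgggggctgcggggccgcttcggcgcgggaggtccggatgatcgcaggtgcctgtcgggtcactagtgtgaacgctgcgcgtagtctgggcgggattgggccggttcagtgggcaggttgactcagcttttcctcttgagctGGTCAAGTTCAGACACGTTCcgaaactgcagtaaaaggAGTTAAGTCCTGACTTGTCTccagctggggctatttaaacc
MDM4: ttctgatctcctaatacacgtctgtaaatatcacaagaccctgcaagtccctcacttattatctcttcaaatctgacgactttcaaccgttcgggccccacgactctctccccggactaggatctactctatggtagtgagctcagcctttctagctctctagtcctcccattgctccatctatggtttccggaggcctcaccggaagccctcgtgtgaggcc
TP73 internal start: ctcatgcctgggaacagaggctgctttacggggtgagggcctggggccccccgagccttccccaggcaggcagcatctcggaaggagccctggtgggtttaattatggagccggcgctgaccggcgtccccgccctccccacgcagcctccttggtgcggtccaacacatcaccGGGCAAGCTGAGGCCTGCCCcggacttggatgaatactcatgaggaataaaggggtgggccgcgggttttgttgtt

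The internal MDM2 stretch held 2 matches, of 18 and 17 of 20 bases, and the TP73 stretch held 1 match of 18 of 20. A match of at least 18 was present in 0.649% of the 35116 windows, and one of at least 17 in 5.2%. The best matches were 15 of 20 in the upstream MDM2 window and in MDM4, 16 in PPM1D and 14 in CCNG1, and a match of at least 15 was present in 70.5% of windows. These are letters in a window and not measured binding sites, and the deposited gene-level values do not separate transcripts by start site.

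Levels are given as FPKM, a read count scaled to gene length and library total, as the authors deposited them. Library totals recovered from these values ran from 16067405 to 38337869 reads in the lines and from 18354091 to 121769119 in the resistance set. All 7 B cell markers examined averaged at least 1 FPKM in all 10 groups. The 5 myeloid markers summed to between 5.14 and 9.24 FPKM in untreated and between 19.5 and 32.9 in treated OCI-LY19, with CD14 and FCGR3A below 1 on average, and to between 0.266 and 0.455 and between 5.25 and 6.23 in SUDHL5. The 6 T and NK cell markers summed to between 3.95 and 4.47 in untreated and between 14.1 and 16.6 in treated SUDHL5. Summed B cell markers in OCI-LY3 were between 1309 and 1580 untreated and between 712 and 890 treated. Their part in the results below was not tested. Replicate libraries of SUDHL5 differed less from each other than those of other groups, with chi-square values per degree of freedom of 1.98 to 5.64 against 7.15 to 101, and they were still above sampling noise. In bulk RNA, fewer cells expressing a gene and less RNA per cell cannot be told apart.

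Doxorubicin was followed by higher MDM2, PPM1D, CCNG1 and TP53INP1 in OCI-LY19 and SUDHL5, while in HT only CCNG1 and TP53INP1 passed and in OCI-LY3 those 2 and PPM1D. MDM4 did not pass in any line. Changes are differences of log2(FPKM + 1), fitted with limma, and a gene passed when its Benjamini-Hochberg adjusted p over all genes tested was below 0.05. Of the members, 4 of 6 rose and 0 fell in OCI-LY19, where 34.5% of 17645 genes tested were called higher and 23.7% lower. In SUDHL5 4 rose and 1 fell, beside 18.6% called higher and 19.9% called lower. In OCI-LY3 3 rose and 0 fell, beside 40.4% and 14.3%, and in HT 2 rose and 0 fell, beside 22.9% and 9.41%. CCNG1 and TP53INP1 were called higher in all 4 lines, as were 2.98% of genes. MDM2 was called higher in OCI-LY19 and SUDHL5 and in neither other line, as were 3.72% of genes.

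**Figure D1:**
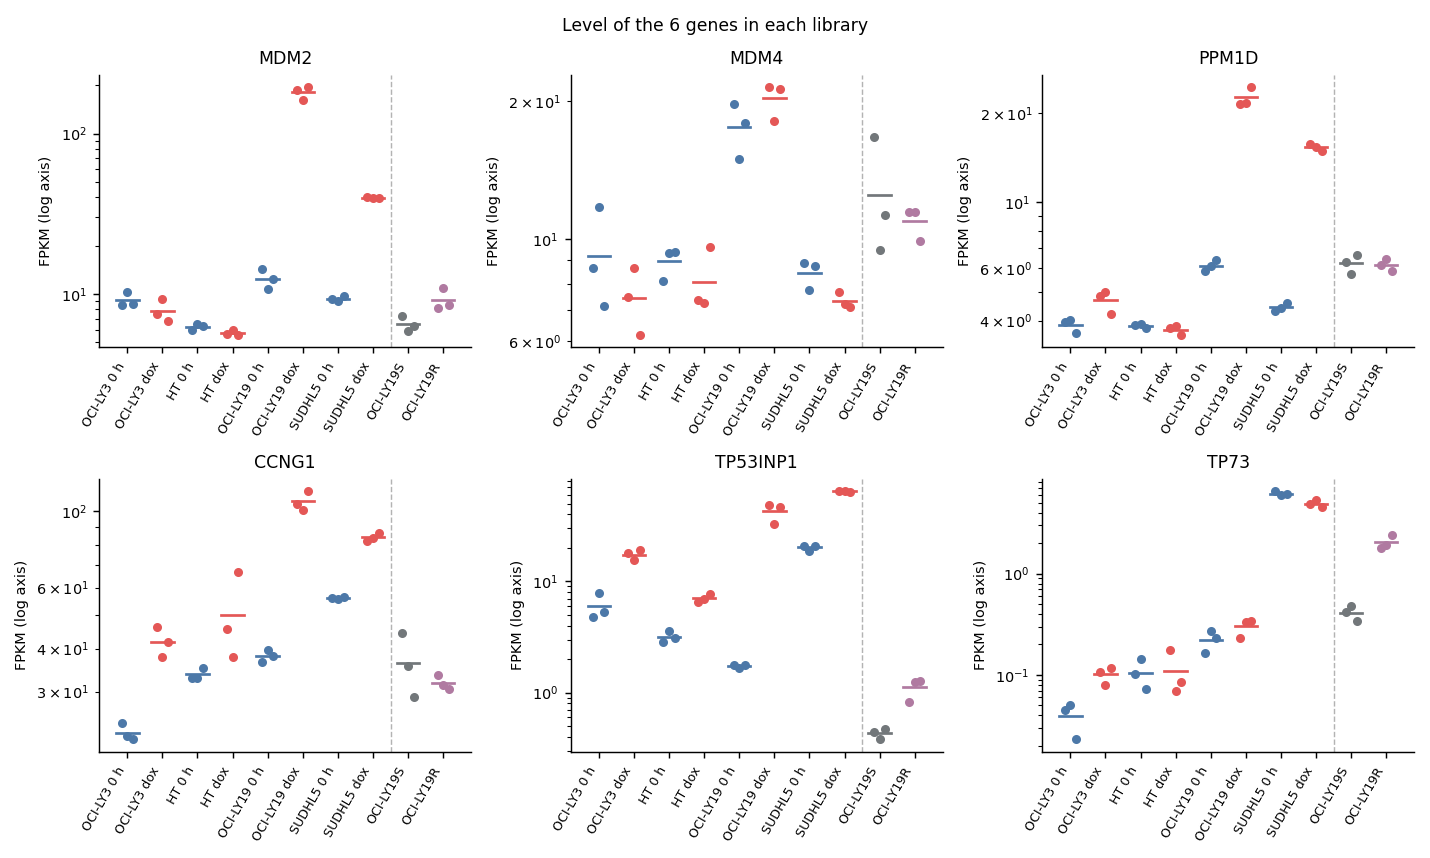
FPKM on log axes for each of the 6 genes (panels) in each of the 30 libraries (points), with the group mean as a bar; blue is untreated at 0 h, red is doxorubicin for 24 h, grey OCI-LY19S and purple OCI-LY19R, and the dashed line separates the table of lines from the separately normalized resistance table. MDM2 lies between 163 and 195 FPKM in treated OCI-LY19, above every other library, and TP73 is above 4 FPKM only in SUDHL5.

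MDM2 stood at 14.3, 10.7 and 12.4 FPKM in the untreated OCI-LY19 libraries and at 187.7, 163 and 195 FPKM in the treated ones. The groups did not overlap, as held for 61.2% of genes in this line, and the lowest treated library was far above the highest untreated one. The mean went from 12.5 ± 1.76 to 182 ± 16.9 (SD, n = 3), a rise of 3.77 ± 0.10 (SE) on the log2 scale with a limma adjusted p of 3.27e-16, the 21st largest rise of 17645 genes. In SUDHL5, MDM2 was 9.36, 8.99 and 9.65 FPKM untreated and 40.1, 39.8 and 39.6 treated. All treated SUDHL5 libraries were thus above all untreated ones, in a line where the groups of 59.9% of genes did not overlap. The rise was 1.98 ± 0.10 (log2, SE). The MDM2 response was 1.78 larger in OCI-LY19 than in SUDHL5 on the log2 scale (SE 0.14, 95% interval 1.496 to 2.07, limma adjusted p 7.9e-09), and 43.9% of genes differed in response between these lines.

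In OCI-LY3, MDM2 was 8.51, 10.3 and 8.70 FPKM untreated and 7.55, 9.27 and 6.80 treated. The groups overlapped, while those of 57.4% of genes did not, and the change of -0.20 ± 0.10 (log2, SE) did not pass (limma adjusted p 0.0891). It passed as lower under 5 of 17 alternatives, among them median-of-ratios scaling (-0.45) and without treated replicate 2 (-0.31, adjusted p 0.0101), and was -0.11 (adjusted p 0.384) without treated replicate 3. Same-numbered untreated and treated OCI-LY3 libraries share the first part of their library names, whose meaning the labels do not give. With the replicate number as a block, MDM2 passed as lower in OCI-LY3 (limma adjusted p 0.0082), and the treated library was the lower one in 3 of 3 numbers. HT gave 5.96, 6.48 and 6.35 FPKM untreated and 5.60, 5.97 and 5.54 treated, with a change of -0.11 ± 0.10 that did not pass. The HT groups overlapped, while those of 42.2% of genes did not. Across the 8 groups of lines the order of MDM2 was treated OCI-LY19, treated SUDHL5, untreated OCI-LY19, untreated SUDHL5, untreated OCI-LY3, treated OCI-LY3, untreated HT and treated HT. Untreated SUDHL5 and untreated OCI-LY3, untreated and treated OCI-LY3, and untreated and treated HT were neighbours in this order that did not differ beyond their spread. From the highest to the lowest neighbouring groups, 75%, 74.2%, 71%, 66%, 54.7%, 65.1% and 32.3% of genes differed.

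MDM4 was highest in OCI-LY19 before and after the drug. Untreated OCI-LY19 libraries had 19.7, 14.9 and 17.9 FPKM and treated ones 21.5, 18.1 and 21.3, with overlapping groups, and the change of 0.21 ± 0.14 (log2, SE) did not pass (adjusted p 0.232, limma, and 0.0261 with the replicate block). In SUDHL5 it was 8.87, 7.75 and 8.75 untreated and 7.66, 7.22 and 7.10 treated, a change of -0.18 ± 0.14 (95% interval -0.48 to 0.12). The groups of SUDHL5 did not overlap, as held for 59.9% of genes there. OCI-LY3 gave 8.67, 11.7 and 7.13 FPKM untreated and 7.49, 8.64 and 6.18 treated, and HT 8.12, 9.31 and 9.40 untreated and 7.37, 7.24 and 9.60 treated; the groups overlapped in both lines. In OCI-LY3 the MDM4 difference of -0.26 ± 0.14 passed as lower under median-of-ratios scaling (-0.50) and without untreated replicate 3 (-0.41, adjusted p 0.0231), and was -0.08 (adjusted p 0.662) without untreated replicate 2. With the replicate block it passed as lower (limma adjusted p 0.00895), and the treated library was the lower one in 3 of 3 numbers. In the order of MDM4 levels the 2 OCI-LY19 groups came first and did not differ from each other, and no neighbours among the other 6 groups differed.

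The ratio of MDM2 to MDM4 FPKM compares the ligase with its relative. It was 0.724, 0.719 and 0.694 in untreated OCI-LY19 and 8.74, 8.996 and 9.18 in treated OCI-LY19. In SUDHL5 it was 1.05, 1.16 and 1.10 untreated and 5.23, 5.52 and 5.57 treated. The groups did not overlap in either line. In OCI-LY3 the mean ratio was 1.03 ± 0.18 untreated and 1.06 ± 0.05 treated, and in HT 0.70 ± 0.03 and 0.72 ± 0.13 (SD, n = 3), with overlapping groups in both. This ratio is a description and was not tested.

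**Figure D2:**
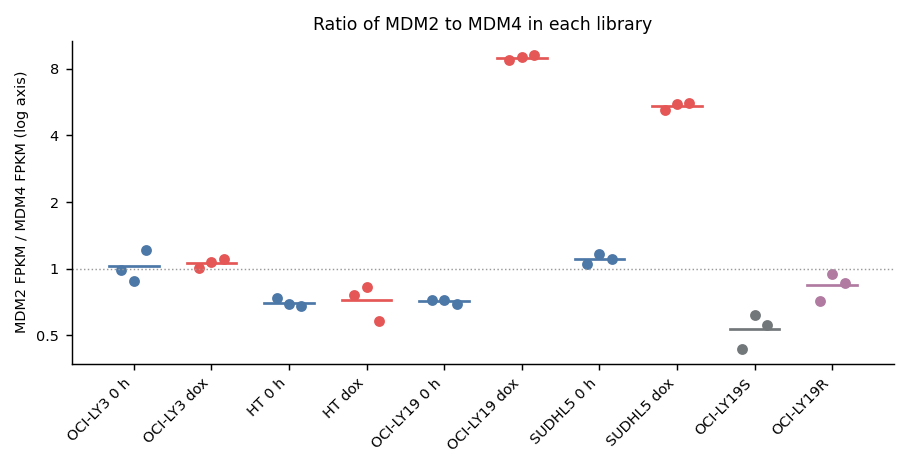
MDM2 FPKM divided by MDM4 FPKM on a log axis in each of the 30 libraries (points), with group means as bars; the dotted line marks equal FPKM. Treated OCI-LY19 libraries lie between 8.74 and 9.18 and treated SUDHL5 libraries between 5.23 and 5.57, above all others.

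PPM1D, the phosphatase gene of the feedback, was 5.89, 6.10 and 6.39 FPKM in untreated and 21.5, 21.7 and 24.5 in treated OCI-LY19. It was 4.29, 4.39 and 4.59 in untreated and 15.7, 15.3 and 14.9 in treated SUDHL5. Neither line's groups overlapped, as held for 61.2% of genes in OCI-LY19 and 59.9% in SUDHL5. The rises were 1.72 ± 0.06 and 1.59 ± 0.06 on the log2 scale, and their difference of 0.13 ± 0.08 did not pass (limma adjusted p 0.213, 95% interval -0.04 to 0.31). In OCI-LY3, PPM1D was 3.95, 4.03 and 3.65 FPKM untreated and 4.846, 4.997 and 4.197 treated, a rise of 0.22 ± 0.06 (limma adjusted p 0.00379). That call was lost with the OCI-LY3 libraries alone (adjusted p 0.087) and turned to -0.0042 under median-of-ratios scaling and -0.0726 under quantile normalization, where the median change of all genes moved from 0.16 to near 0. HT gave 3.88, 3.89 and 3.77 FPKM untreated and 3.79, 3.83 and 3.58 treated, with a change of -0.03 ± 0.06 that did not pass. The order of PPM1D was treated OCI-LY19, treated SUDHL5, untreated OCI-LY19, treated OCI-LY3, untreated SUDHL5, untreated OCI-LY3, untreated HT and treated HT. Treated OCI-LY3 and untreated SUDHL5 did not differ beyond their spread, nor did untreated OCI-LY3, untreated HT and treated HT from one neighbour to the next.

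CCNG1 rose in every line tested. In OCI-LY19 it was 36.6, 39.6 and 38.1 FPKM untreated and 105, 101 and 114 treated, a rise of 1.46 ± 0.13 (log2, SE). In OCI-LY3 it was 24.4, 22.3 and 21.8 untreated and 46.2, 37.9 and 41.7 treated, a rise of 0.85 ± 0.13. Treated libraries were above all untreated ones in both lines. Groups did not overlap for 61.2% of genes in OCI-LY19 and 57.4% in OCI-LY3. SUDHL5 started highest, at 56.1, 55.6 and 56.4 FPKM, and reached 82.0, 83.4 and 86.4, a rise of 0.57 ± 0.13 (limma adjusted p 0.00107). HT went from 32.97, 32.96 and 35.02 to 45.6, 37.8 and 66.8, a rise of 0.52 ± 0.13 (limma adjusted p 0.00341). The treated HT libraries were widely spread, and with the HT libraries alone the call was lost (adjusted p 0.135). Without treated replicate 3, the highest library, the rise was 0.30 (adjusted p 0.0112). The order of CCNG1 was treated OCI-LY19, treated SUDHL5, untreated SUDHL5, treated HT, treated OCI-LY3, untreated OCI-LY19, untreated HT and untreated OCI-LY3. Neighbours from untreated SUDHL5 to untreated HT did not pass in limma, which uses a spread shared by the 8 groups. Untreated OCI-LY19 (38.09 ± 1.48 FPKM, SD) and untreated HT (33.65 ± 1.19) were nevertheless apart beyond their own spread (limma adjusted p 0.239).

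TP53INP1 also rose in every line tested. It was 1.78, 1.67 and 1.75 FPKM in untreated OCI-LY19, the lowest level of any line, and 48.4, 32.6 and 46.8 after doxorubicin, a rise of 3.97 ± 0.14 (log2, SE), the 18th largest of 17645 genes. In SUDHL5 it was 20.9, 18.8 and 20.9 untreated and 64.7, 64.6 and 64.3 treated, a rise of 1.63 ± 0.14. No line's groups overlapped for this gene. Taken line by line, the same held for 57.4% of genes in OCI-LY3, 42.2% in HT, 61.2% in OCI-LY19 and 59.9% in SUDHL5. OCI-LY3 went from 4.77, 7.88 and 5.27 FPKM to 17.8, 15.5 and 19.03, a rise of 1.42 ± 0.14. HT went from 2.86, 3.55 and 3.11 to 6.54, 6.99 and 7.72, a rise of 0.96 ± 0.14. The order of TP53INP1 was treated SUDHL5, treated OCI-LY19, untreated SUDHL5, treated OCI-LY3, treated HT, untreated OCI-LY3, untreated HT and untreated OCI-LY19. Untreated SUDHL5 and treated OCI-LY3, and treated HT and untreated OCI-LY3, were neighbours that did not differ beyond their spread. The OCI-LY3 and SUDHL5 responses of TP53INP1 differed by -0.21 ± 0.20 (limma adjusted p 0.423), while MDM2 responses of the same lines differed by -2.18 ± 0.14 (adjusted p 6.66e-10), as did 49.4% of genes.

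TP73, the p53 relative, was above 1 FPKM in SUDHL5 and in no other line. It was 6.52, 5.92 and 6.09 FPKM in untreated and 4.87, 5.29 and 4.60 in treated SUDHL5, and it fell by 0.28 on the log2 scale (SE 0.06, limma adjusted p 0.00107). With a pseudocount of 0.1 that call was lost (adjusted p 0.194). Every other line was below 0.4 FPKM: the untreated OCI-LY3 libraries held 8, 9 and 4 reads and the treated ones 20, 13 and 19, and HT libraries held 15 to 25. OCI-LY19 held 39, 47 and 41 reads untreated and 54, 73 and 73 treated. TP73 entered the tests only through SUDHL5, so its difference in level between lines carries no weight as a test.

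The response to doxorubicin differed among the 4 lines for MDM2, PPM1D, CCNG1 and TP53INP1, by a limma F test over the lines, as it did for 72.2% of genes. The adjusted p was 8.67e-14 for MDM2, 2.69e-12 for PPM1D, 9.53e-10 for TP53INP1 and 0.000357 for CCNG1. It was 0.168 for MDM4, which did not pass, and 0.00213 for TP73, a value that carries no weight because the gene entered the tests only through SUDHL5 and held 4 to 73 reads in libraries of the other lines. Untreated levels differed for the 5 genes other than TP73, as they did for 90.5% of genes. Library names end in L3 for every SUDHL5 library, in L6 for every HT library and in L4 or L5 for OCI-LY3. The labels do not say what this suffix marks. Its part in level differences between lines cannot be fully separated from the line. Untreated MDM4 was 0.88 ± 0.14 higher in OCI-LY19 than in OCI-LY3 on the log2 scale, as 62.8% of genes differed there. The untreated TP53INP1 difference of OCI-LY19 minus SUDHL5 was -2.96 ± 0.14, where 71% of genes differed.

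In the resistance set, TP73 was the member that passed. It was 0.419, 0.474 and 0.345 FPKM (52, 66 and 284 reads) in OCI-LY19S and 1.79, 1.92 and 2.42 for the resistant cells (406, 344 and 389 reads). The groups did not overlap, and TP73 rose by 1.10 ± 0.12 (log2, SE, limma adjusted p 0.0081), beside 3.11% of 12785 genes called higher and 2.34% called lower. It entered the test only through OCI-LY19R, where it is high. Its adjusted p and the count of 1 of 5 members tested are therefore a description and carry no weight as a test. With no filter the limma adjusted p of TP73 was 0.0475. The +1 in log2(FPKM + 1) understates changes at such low levels: with a pseudocount of 0.1 the TP73 difference was 2.06, and with voom on recovered reads 2.38. The authors' deposited table gives a log2 fold change of 2.27 for TP73. MDM2 was 7.26, 5.87 and 6.28 FPKM in OCI-LY19S, against 8.18, 10.8 and 8.49 in OCI-LY19R. The groups did not overlap, as held for 32.7% of genes, but the change of 0.44 ± 0.13 did not pass (limma adjusted p 0.0977), while the authors' deposited table gives 0.432 with an adjusted p of 0.0465. Untreated OCI-LY19 of the separately normalized set of lines had MDM2 at 14.27, 10.75 and 12.42 FPKM. The difference between the sets was not tested.

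None of the other members passed between the resistant and parental cultures. TP53INP1 was 0.444, 0.379 and 0.467 FPKM in OCI-LY19S, against 0.816, 1.24 and 1.28 in OCI-LY19R, without overlap, as held for 32.7% of genes tested. It was too low for the filter, and without a filter its change of 0.56 ± 0.13 did not pass (limma adjusted p 0.152), while the authors' deposited table gives 1.28 with an adjusted p of 2.87e-05. Untreated OCI-LY19 of the set of lines had TP53INP1 at 1.78, 1.67 and 1.75 FPKM. MDM4 was 16.7, 9.48 and 11.3 FPKM in OCI-LY19S, against 11.4, 11.4 and 9.90 in OCI-LY19R. PPM1D was 6.32, 5.74 and 6.66 and then 6.14, 6.44 and 5.88, and CCNG1 was 44.3, 35.5 and 29 and then 33.5, 31.5 and 30.6. These 3 genes overlapped between the cultures and did not pass, with 95% intervals of -0.60 to 0.30, -0.22 to 0.19 and -0.52 to 0.19.

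Genes of the pathway outside the 6 members were counted from 2 lists, which were also chosen with earlier results of these data known. Of 27 tested p53 pathway targets, which include arrest, repair and death genes, 27 rose in OCI-LY19 and 26 in SUDHL5, with 0 falling in either, beside 34.5% and 18.6% of all genes called higher. In OCI-LY3 14 rose and 5 fell, beside 40.4% of all genes higher and 14.3% lower. Under median-of-ratios scaling 9 rose there, while all genes called higher went from 7128 to 4740 of 17645. In HT 11 rose and 3 fell, beside 22.9% and 9.41%. Under quantile normalization 6 rose there, while all genes called higher went from 4038 to 2596. The median change of the targets was 2.51 in OCI-LY19 and 1.49 in SUDHL5, against 0.08 and 0.0013 over all genes, and 0.30 in OCI-LY3 and 0.17 in HT, against 0.16 and 0.06. CDKN1A, the arrest gene encoding p21, went from 23.8 ± 2.99 to 524 ± 29.3 FPKM in OCI-LY19 and from 13.2 ± 0.41 to 236 ± 7.42 in SUDHL5. In OCI-LY3 it rose from 0.743 ± 0.423 to 5.62 ± 2.05. In HT the CDKN1A change of 0.07 ± 0.16 (log2, SE) did not pass (limma adjusted p 0.835). DDB2, a DNA damage recognition gene, rose in HT from 4.14 ± 0.24 to 9.36 ± 1.65, while BTG2, an antiproliferative gene, fell there from 134 ± 17.6 to 71.5 ± 6.27 FPKM. In OCI-LY19R against OCI-LY19S, 3 of 23 targets rose and 2 fell, beside 3.11% and 2.34% of all genes, and BTG2 rose from 2.26 ± 0.22 to 7.36 ± 2.05. The count of targets that rose was 0 with no filter or without OCI-LY19S replicate 2, where all genes called higher went from 397 to 75 and 50. It was 1 with the replicate block and without OCI-LY19S replicate 3, OCI-LY19R replicate 2 or OCI-LY19R replicate 3. In that order 136, 176, 32 and 55 of all genes were called higher.

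The 34 regulators of p53 and MDM2, such as kinases, acetylases and ubiquitin enzymes, split in both directions. In OCI-LY19 10 rose and 14 fell, in SUDHL5 6 rose and 13 fell, in OCI-LY3 11 rose and 8 fell, and in HT 7 rose and 6 fell. The shares of all genes called higher and lower were 34.5% and 23.7% in OCI-LY19, 18.6% and 19.9% in SUDHL5, 40.4% and 14.3% in OCI-LY3, and 22.9% and 9.41% in HT, and nothing particular to the regulators is read from their counts. HIPK2, a kinase of p53, rose in OCI-LY19 from 3.07 ± 0.80 to 9.29 ± 1.26 FPKM. It did not pass in SUDHL5 (log2 change 0.02), OCI-LY3 (0.11) or HT (0.007). USP7, a deubiquitinase of MDM2 and p53, fell in SUDHL5 from 34.5 ± 0.12 to 20.0 ± 0.43. It also fell in OCI-LY19 (log2 change -0.66) and OCI-LY3 (-0.43), and its change in HT (-0.10) did not pass. CHEK1, a checkpoint kinase, fell in OCI-LY19 from 20.4 ± 0.57 to 7.98 ± 1.66. It also fell in SUDHL5 (log2 change -0.58), rose in OCI-LY3 (0.30) and did not pass in HT (0.23). In the resistance set 2 of 33 rose and 2 fell, beside 3.11% and 2.34%.

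**Figure D3:**
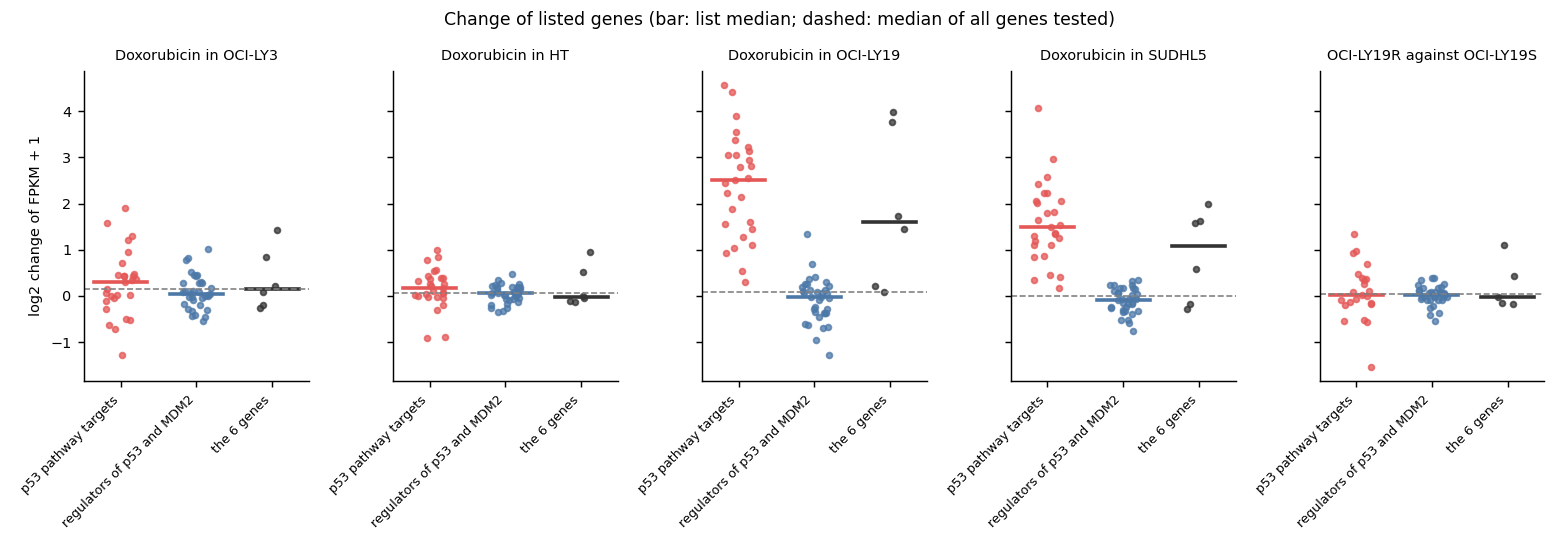
Change of log2(FPKM + 1) for each gene (points) of the p53 pathway target list, the regulator list and the 6 genes, in the 5 comparisons (panels); bars are list medians and the dashed line is the median of all genes tested. The target median is 2.51 in OCI-LY19 and 1.49 in SUDHL5, against 0.30 in OCI-LY3 and 0.17 in HT.

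Close relatives of the members were read in the same fits. TP53INP2, the relative of TP53INP1, rose in all 4 lines, by 1.86 ± 0.10 in OCI-LY3, 1.20 ± 0.10 in HT, 1.27 ± 0.10 in OCI-LY19 and 0.44 ± 0.10 in SUDHL5 on the log2 scale. CCNG2, the relative of CCNG1, rose by 0.58 ± 0.14 in HT and 1.4 ± 0.14 in OCI-LY19 and fell by 0.39 in SUDHL5 (SE 0.14). PPM1A, a phosphatase related to PPM1D, rose by 0.55 ± 0.10 in OCI-LY19 and passed in no other line, and PPM1B rose by 0.57 ± 0.08 in OCI-LY3 and passed in no other line. TP63 was below the filter.

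Genes that overlap members were followed because the strand setting of the counting is not given in the sources used here, so reads of overlapping genes cannot be told apart. CPM, which lies on the opposite strand and shares 8490 bases with MDM2, went from 1.44 to 18.4 FPKM in OCI-LY19 (rise of 2.996 ± 0.08) and from 2.68 to 6.19 in SUDHL5 (rise of 0.97 ± 0.08). Its changes of -0.11 ± 0.08 in OCI-LY3 and 0.02 ± 0.08 in HT did not pass. SLC35E3, 14212 bases before MDM2 on the same strand, rose in OCI-LY19 from 1.35 to 8.27 FPKM (rise of 1.97 ± 0.07). It also rose in OCI-LY3 by 0.54 ± 0.07 and in HT by 0.28 ± 0.07, where MDM2 did not, and its change of 0.15 ± 0.07 in SUDHL5 did not pass (limma adjusted p 0.111). NDUFAF6, which overlaps all of TP53INP1, rose in OCI-LY19 from 3.87 to 7.70 and in SUDHL5 from 3.94 to 5.61. It fell in HT by 0.21 on the log2 scale (SE 0.08, limma adjusted p 0.0471). Its change of -0.17 ± 0.08 in OCI-LY3 did not pass, while TP53INP1 rose in both of these lines. WRAP73, which shares 242 bases with TP73, rose in SUDHL5 from 4.38 to 5.99 while TP73 fell.

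The genes whose levels across the 24 libraries were most like each member are given as a description, since the libraries share lines and treatment. The members themselves and genes without a symbol were left out of this search. Names that fit patterns for clones, noncoding RNAs, pseudogenes or antigen receptor segments were left out too. These patterns also drop some other genes whose names end in P and a number, so a closer gene may be missing. MDM2 was most like EGR2 (Pearson r 0.980), RGS16 (0.979) and ATF3 (0.979), and PPM1D most like APOBEC3H (0.983), ATF3 (0.980) and ZNF79 (0.978). CCNG1 was most like ANKRA2 (0.960), PARP3 (0.959) and PPP4R1L (0.947), and TP53INP1 most like SESN2 (0.968), the gene of a stress-response protein, SYTL1 (0.960) and DDB2 (0.945). MDM4 was most like NPIPB5 (0.952), a member of a family of near-identical copies, TUBA3D (0.948) and FAM169A (0.946). TP73 was most like TNFRSF21 (0.997), PYGO1 (0.996) and EFNA5 (0.996), all of which had their highest value in untreated SUDHL5.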

How the data were processed

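Human lymphoma line RNA was sequenced from poly(A)-selected directional libraries, per the labels' protocols. The submitters' processing notes name hg38, featureCounts, STAR and Trimmomatic without versions, and no source used here gives the strand setting. The authors deposited FPKM values in a table of the 4 lines and a separately normalized table of OCI-LY19S and OCI-LY19R. The second table also holds the authors' deposited log2 fold changes, adjusted p-values, mean signal and, as score values, standard errors and test statistics.

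Genes reaching FPKM 1 in 3 or more libraries of a table were kept (17645 and 12785 genes), log2(FPKM + 1) was fitted with limma 3.58.1 in R 4.3.3 (two-sided, trended variance, Benjamini-Hochberg over all genes tested), and errors are SD over 3 libraries or SE of the fit. The lines shared 1 fit of 24 libraries in 8 groups (16 residual degrees of freedom), and the other 6 libraries a fit with 4. The fold change on this scale understates changes of low genes. The fitting script was tested on simulated data at a noisier and a less noisy setting, the latter added after the noisier one had missed most of the smaller changes, so a member that did not pass may still differ. FPKM values came out as whole reads within 0.01 read for all but 3 of the genes with any value, with the gene length taken from the annotation for 25442 genes and solved from the values for 19201, and limma-voom on these reads was an alternative.

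Named were all members, the 3 genes of each list with the largest called change (a selection of them is printed), relatives, overlapping or near neighbours and the most similar genes. The members and lists were chosen with earlier results of these data known. Treated samples were grouped from their treatment label, since their titles also hold a control tag. Same-numbered libraries deviated together in HT (r of 0.167, 0.320 and 0.347) and not in every pair of the other comparisons, so the fit without a replicate block is given first. Alternatives are in the closing section. P53 itself is not reported here.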

Additional observations from a re-analysis of the deposited data

Results flagged for a closer look

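The response to doxorubicin differed among the 4 lines by the limma F test for MDM2, PPM1D, CCNG1 and TP53INP1, and each is listed because its effect differs between lines. The adjusted p was 8.67e-14 for MDM2, 2.69e-12 for PPM1D, 0.000357 for CCNG1 and 9.53e-10 for TP53INP1. The treated minus untreated difference of MDM2 was -0.20 in OCI-LY3, -0.11 in HT, 3.77 in OCI-LY19 and 1.98 in SUDHL5 on the log2 scale, and that of PPM1D 0.22, -0.03, 1.72 and 1.59. In the same order the differences were 0.85, 0.52, 1.46 and 0.57 for CCNG1, and 1.42, 0.96, 3.97 and 1.63 for TP53INP1. The F tests of these 4 genes passed under all 33 alternatives run for them. TP73 has a value of 0.00213 in the same test, given as a description only, since it entered the tests through SUDHL5 alone and held 4 to 73 reads in libraries of the other lines. Its differences in that order were 0.08, 0.00, 0.09 and -0.28.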

How the results depend on the processing

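MDM2, PPM1D, CCNG1 and TP53INP1 kept their rise and their call in OCI-LY19 and SUDHL5 under every alternative run, as did TP53INP1 and CCNG1 in OCI-LY3 and TP53INP1 in HT. Under median-of-ratios scaling PPM1D in OCI-LY3 was -0.0042 and TP73 in HT -0.0033, and OCI-LY3 had 4740 genes higher and 4460 lower. Under quantile normalization PPM1D in OCI-LY3 was -0.0726, TP73 -0.0277 in HT and -0.0652 in OCI-LY19, OCI-LY3 had 4576 higher and 4050 lower, and HT 2596 higher. The share of calls that were higher was 73.9% in OCI-LY3 and became 51.5% and 53% under these scalings, and 70.9% in HT became 55.9% and 53.6%; it went from 59.3% to 45.8% in OCI-LY19 (quantile), from 48.4% to 38.1% in SUDHL5 (TPM scale) and from 57.0% to 44.9% in OCI-LY19R (median of ratios). With voom on recovered reads TP73 in HT was -0.1039. A filter at FPKM 5 tests fewer genes and left 4548 higher in OCI-LY3, 3521 higher in OCI-LY19, 10242 differing in untreated level, and 177 higher and 191 lower in OCI-LY19R, with 0 members since TP73 is not tested there; no filter left 75 and 55. With the HT libraries alone 1 member rose and 968 genes were lower. With the replicate block 5 members passed in OCI-LY3, MDM2 and MDM4 as lower (adjusted p 0.0082 and 0.00895), MDM4 passed in OCI-LY19 (0.0261) and in the response difference (0.0065), OCI-LY19R had 136 genes higher and 140 lower, and no member call changed in HT, where the numbers pair. In OCI-LY3 the same-numbered libraries share the first part of their names, as in HT and for replicates 1 and 3 in OCI-LY19, but no label says what it marks, and their deviations did not correlate in every pair; whether these numbers pair the samples was not settled. Leaving out a library in turn gave 32 to 636 genes higher and 33 to 493 lower in OCI-LY19R, the most without OCI-LY19S replicate 1 and the fewest without OCI-LY19R replicate 2; TP73 in HT ran from -0.0368 (without treated replicate 1) to 0.031, with -0.0169 without untreated replicate 3, MDM4 in OCI-LY19R from -0.3111 to 0.0682 (without OCI-LY19S replicate 1), and PPM1D in OCI-LY19R from -0.0661 to 0.0263 (without OCI-LY19S replicate 3), with 0.012 without OCI-LY19R replicate 3. MDM4 also passed in the response difference under quantile normalization (0.0190) and without OCI-LY3 untreated replicate 3 (0.0475), and in SUDHL5 as lower with that line alone (0.0468); PPM1D in HT passed as lower under quantile normalization (0.0497). TP73 in OCI-LY3 passed as higher with a pseudocount of 0.1, voom or that line alone, at 4 to 20 reads a library. Leaving out SUDHL5, an alternative chosen after seeing the data, changed no member call in the other lines. The cause of these shifts was not tested.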
